A study of Ovis aries with 18 samples.

Results

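Predicted microRNA (miRNA) loci of the sheep genome whose seed is listed only under a mouse miRNA name were followed in vesicles of the uterine lumen and in the endometrium. A row belonged to this set when its identifier was not a sheep miRNA name and its seed entry began with the mouse prefix, and 2 such rows, 13_7667 and 11_5329, were left out. The set held 54 of the 495 rows of the vesicle table and 94 of the 761 rows of the endometrium table. All 54 vesicle rows were also among the 94 endometrium rows, and of all 495 vesicle rows 488 were in the endometrium table. Rows with identical values were counted once, which left 46 members in vesicles and 93 in the endometrium.

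The samples came from ovariectomized ewes. All received 50 mg of progesterone (P4) a day for 14 days, and 1 group also received 50 mg of RU486 (mifepristone, an antagonist of the progesterone receptor) a day on days 8 to 14. The groups are called P4 and P4+RU486, and no group without progesterone was among the samples. Small RNA was sequenced from the endometrium of 5 ewes per treatment and from vesicles of 4 ewes per treatment, where the lumen was flushed as a whole, so the cells that released the vesicles are not known. The question was how vesicle and tissue miRNAs respond when the receptor is blocked late in the progesterone course.

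A miRNA is cut from a hairpin whose 5p and 3p arms can each give a mature strand, and the seed, a short stretch near the 5' end of the strand, directs it to its target mRNAs. Strands with the same seed form a family even when the rest of the sequence differs. A seed name therefore gives a likely target family but not the identity of a locus. Low-numbered miRNA names were mostly given early, to abundant and conserved miRNAs, and high-numbered mouse names mostly came from deep sequencing, often for strands of low level. The tables give 1 seed name per row, so a mouse name does not show that the seed is absent from other species: miR-34c, miR-423 and miR-425, for example, are known in humans too.

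The 8 vesicle libraries are called by a letter for the treatment (P for P4, R for P4+RU486) and a number, and they held 97202 to 1062646 reads in listed rows. Values are in normalized CPM (CPM of a library size adjusted between libraries), and 1 read was worth 1.10 to 10.4 of these units. P01, P04 and R04 were the shallowest. P01 stood apart along principal component 1 of all tested rows, an axis with 26.4% of the variance. The epithelial miR-200 rows, with 3 of 5 listed miRNAs matched, summed to 7118 to 30229 normalized CPM in P4 and 10482 to 15999 in P4+RU486. The leukocyte rows (4 of 5 matched, with miR-223 unmatched) summed to 14818 in P01, against 2286 to 5323 in the other libraries. Smooth muscle rows (2 of 3 matched) summed to 9730 to 16531 over all libraries, and ciliated rows (2 of 3 matched, with 15_10275 among them) to 10637 to 19140. The single erythroid row (1 of 3 matched) ran from 281 to 7365 in P4 and from 1848 to 5427 in P4+RU486. Stroma rows (2 of 2 matched) summed to 849 in P01 and to 84 to 593 in the other libraries. The liver or plasma row (miR-885, with miR-122 unmatched) was the one list without overlap, at 105 to 416 in P4 and 63 to 95 in P4+RU486.

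The 46 members were a small part of vesicle RNA. Their summed share of the reads was 2.43% in P01, 1.42% in P02, 0.896% in P03 and 1.38% in P04, and 1.37%, 1.38%, 1.58% and 1.29% in R01 to R04. The exact 95% binomial interval was 2.33% to 2.53% in P01 and 0.878% to 0.914% in P03, for counting error only. The P4 libraries averaged 1.53% ± 0.643 (SD, n = 4), and the P4+RU486 libraries 1.40% ± 0.124 (SD, n = 4). P01 was the highest and P03 the lowest of all 8 libraries, so the P4 libraries enclosed the P4+RU486 libraries. In such bulk RNA, fewer vesicles of a cell type and less of a strand per vesicle cannot be told apart.

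Of the rows with a mouse seed name, 37.5% reached a mean of 10 normalized CPM in vesicles (21 of 56, with the 2 rows left out and the copies included). The same share was 67.5% of rows with a sheep name, 56.1% of predicted rows with a cattle seed name, 16.7% with a human seed name and 24.0% with no seed name. Rows with a mouse seed name thus lay between the cattle-named and the human-named predicted rows, as a description with no test. The most abundant predicted rows of another species' seed name, 10_3805 and X_35741 (miR-92a), had identical values of 45290 to 76358 normalized CPM.

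Fewer members were detected in the shallow libraries. At least 1 read was found for 22, 29, 34 and 19 of the 46 members in P01 to P04 and for 31, 31, 30 and 17 in R01 to R04. The 3 shallowest libraries had the 3 lowest counts and P03, the deepest, the highest. Reads were found in all 8 libraries for 13 members, in 4 to 7 libraries for 14, in 2 or 3 for 11 and in a single library for 8. The median member had 14.5 reads over the 8 libraries together, and 21 members had under 10.

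**Figure D1:**
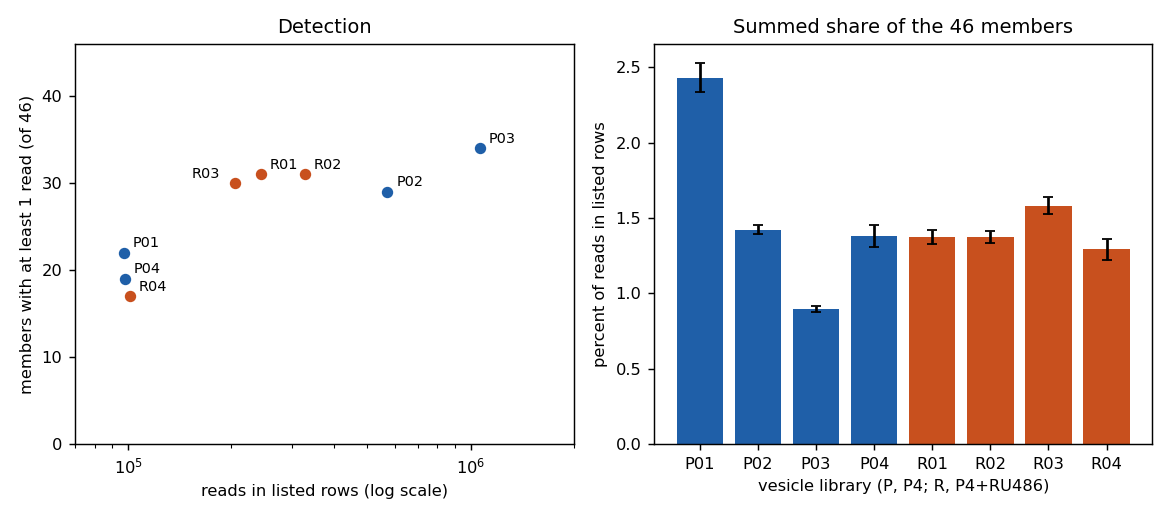
Left, the number of members with at least 1 read (of 46) against the reads in listed rows (log axis) for each vesicle library; right, the percent of reads in members, with exact 95% binomial intervals. P4 libraries are blue and P4+RU486 libraries orange. P01, P04 and R04 have 17 to 22 members detected and the other libraries 29 to 34.

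Members with a low-numbered seed name carried nearly all the reads. The 18 members numbered under 1000 held 96.9% to 98.9% of the members' reads in a library. The 20 members numbered 6000 or more held 0.443% to 1.75%, and the 8 members in between 0.378% to 1.99%. The median level was 13.4 normalized CPM for the low-numbered members, 7.39 for those in between and 1.53 for the high-numbered ones. Of the 18, 20 and 8 members, 11, 5 and 2 reached a mean of 10. The highest mean among the high-numbered members was 48.9, in 1_1746 with the miR-6980-5p seed.

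**Figure D2:**
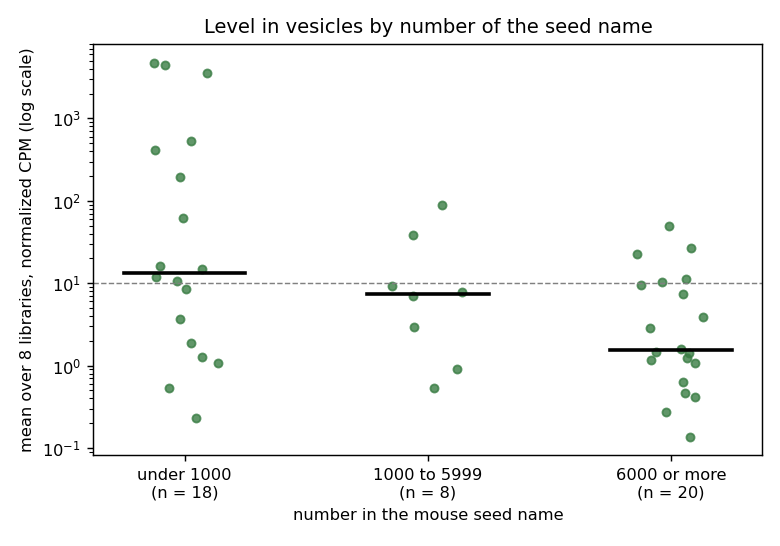
Mean over the 8 vesicle libraries (normalized CPM, log axis) of each member, by the number in its mouse seed name; lines are medians and the dashed line is the mean of 10 needed for testing. Members numbered under 1000 include all 6 rows with a mean above 100, and the median falls from 13.4 to 1.53 between the first and the last class.

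By arm, 22 members had the name of a 3p strand, 15 of a 5p strand and 9 of neither. The 3p members took 95.03% to 97.3% of the members' reads, and the 3 most abundant rows all carry a 3p name. These 3 rows together held 84.3% to 91.1% of the members' reads in a library.

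The most abundant member was 1_3142, with the seed of miR-28a-3p, a strand encoded in an intron of the LPP gene. It was at 4337, 7208, 4479 and 4322 normalized CPM in P01 to P04 and at 4485, 4903, 4179 and 4093 in R01 to R04. P02 was the highest and the other 7 libraries lay between 4093 and 4903. The log2 difference, P4+RU486 minus P4 on log2(value + 1), was -0.17 (SE 0.24, limma adjusted p = 0.814), and with 1 library left out it ran from -0.24 (P04) to 0.01 (P02).

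Next was 15_10275, with the seed of miR-34c-3p, the 3p strand of a miRNA abundant in multiciliated cells and induced by p53. It was at 8281, 3327, 2224 and 3244 normalized CPM in P01 to P04 and at 4822, 4042, 4652 and 5293 in R01 to R04. P01 was the highest of all libraries, while the other 3 P4 libraries lay below every P4+RU486 library. The log2 difference was 0.32 (SE 0.35, limma adjusted p = 0.79), and with 1 library left out it ran from 0.07 (limma adjusted p = 0.969) without P03 to 0.70 (limma adjusted p = 0.209) without P01. With DESeq2 it was 0.06. P01 is also the library with the high leukocyte sum, and the part of that in this value was not tested.

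The identifier 15_10278, with the miR-34b seed and so not a member, is numbered close to 15_10275. The ratio of 15_10275 to 15_10278 was 1.43 in P01 and between 0.193 and 0.76 in the other libraries. P01 was thus the library in which the row with the 3p seed was above the other.

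The third abundant member, 11_4449, has the seed of miR-423-3p, a broadly expressed miRNA. It was at 4054, 3263, 2118 and 3673 normalized CPM in P01 to P04 and at 3709, 3156, 5317 and 2996 in R01 to R04. The groups overlapped, and the treatments differed by 0.21 on the log2 scale (SE 0.28, limma adjusted p = 0.814). With 1 library left out this ran from 0.02 (P03) to 0.33 (P01), and it was 0.04 without R03. The neighbours in this order of levels, 1_3142 with 15_10275 and 15_10275 with 11_4449, had means (4751, 4486 and 3536) closer than the spread among P4 libraries of 15_10275 (SD 2721).

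Means of 100 to 1000 normalized CPM were found for 3 members. The rows 2_15485 and 1_2168, on different chromosomes by their identifiers, share the miR-101b-3p seed and identical values, so they were counted as 1 member. The miR-101 family targets the chromatin enzyme EZH2. This value was 456, 504, 642 and 372 normalized CPM in P01 to P04 and 379.5, 1165, 325 and 407 in R01 to R04. R02 was the highest and the other libraries overlapped. The treatments differed by 0.02 on the log2 scale (SE 0.40, limma adjusted p = 0.99), and with 1 library left out by -0.39 (R02) to 0.22 (R03).

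The member 4_28011 was the only tested one whose treatments did not overlap. It has the seed of miR-574-3p, whose gene lies in an intron of FAM114A1. It was at 581, 432, 527 and 525 normalized CPM in P01 to P04, from 55 to 480 reads each. In R01 to R04 it was at 418, 213, 373 and 282, from 27 to 97 reads each. Every P4 library was above every P4+RU486 library, though P02 exceeded R01 by little. The mean over the 4 P4 libraries was 516.5 ± 61.8 (SD, n = 4). That over the P4+RU486 libraries was 321.5 ± 92 (SD, n = 4), or 0.622 times as high.

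This difference did not pass the limma test. For 4_28011 the log2 difference was -0.72 (SE 0.31, limma adjusted p = 0.317), with a 95% interval from -1.39 to -0.06. Its adjusted p ranged from 0.197 to 0.548 over 20 alternatives and its log2 difference from -0.86 to -0.54. Non-overlapping treatments were seen in 10% of the 229 tested rows and in 5.05% of all 495 rows. Of the tested members 1 of 18 was of this kind, and of all 46 members 2, so these shares are near the background. The liver or plasma row was also higher in every P4 library, and its part in the value of 4_28011 was not tested.

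The second member without overlap was 25_22791, with the miR-7660-5p seed, which did not reach the filter. It had 0 reads in every P4 library and exactly 1 read in each of R01 to R04. These counts are below the 3 reads that a count of 0 allows, so no fold is given. In the authors' deposited table its fold was -13.54 (adjusted p = 0.22).

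The member 19_14400 has the seed of miR-425-5p, which is made from the same primary transcript as miR-191. It was at 165, 236, 213 and 315 normalized CPM in P01 to P04 and at 147, 194, 153 and 136 in R01 to R04. P01 was within the range of the P4+RU486 libraries and the other P4 libraries were above all of them. The log2 difference was -0.53 (SE 0.33, limma adjusted p = 0.494), from -0.68 (P01) to -0.37 (P04) with 1 library left out. The sheep miR-191 row was 77.4 to 185 times as high as 19_14400 in the same library.

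**Figure D3:**
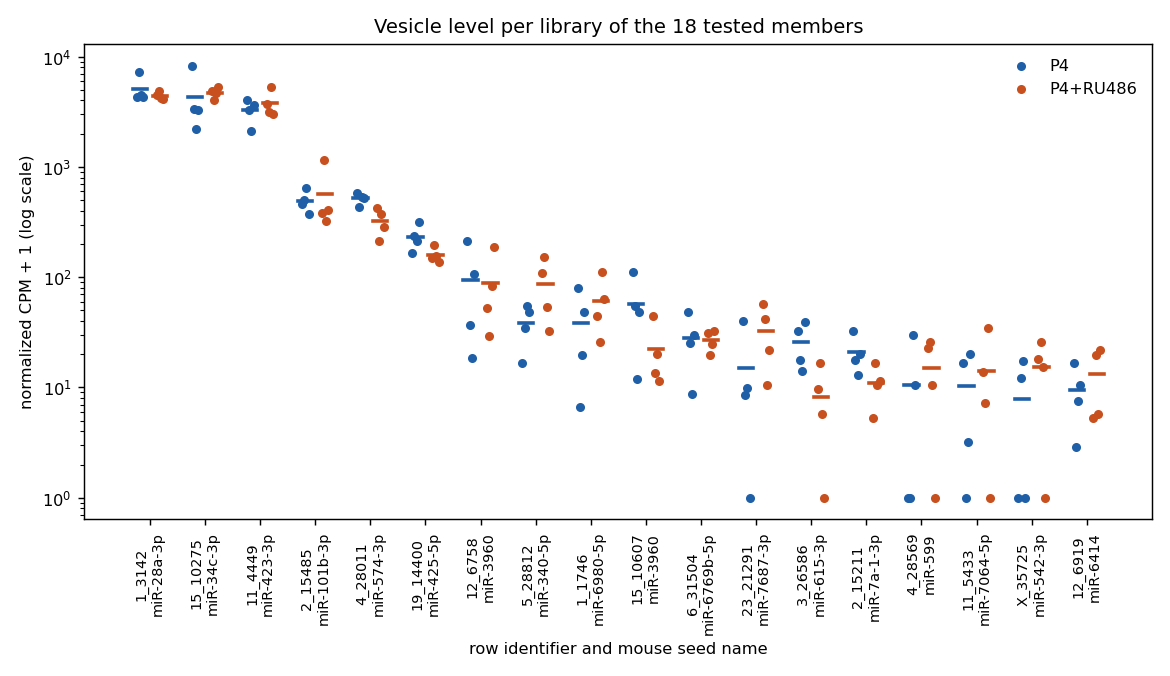
Normalized CPM + 1 (log axis) of the 18 tested members in each vesicle library, with P4 in blue, P4+RU486 in orange and lines at the mean of 4 libraries; points at 1 have no read. Only 4_28011 has treatments that do not overlap, and zeros appear in 5 of the members with means under 25.

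No member passed the test in vesicles. Of the 46 members, 18 reached the mean of 10 that the test required. The count past the threshold (limma, Benjamini-Hochberg adjusted p under 0.05) was 0 of 18 in either direction, beside 0.437% of all 229 tested rows. The filter can let a row in through the treatment where it is high, so the 18 are not all members. An unadjusted limma p under 0.05 was found for 1 of 18 members, against 14.4% of all tested rows. The count was also 0 of 18 with edgeR and with DESeq2 on the recovered reads, beside 0.437% and 1.75% of all rows, with 1 member each at an unadjusted p under 0.05. With edgeR and no filter it was 0 of 46, beside 1.21% of all rows, with 4 members at an unadjusted p under 0.05. The share of all rows at that unadjusted cut was not counted for edgeR or DESeq2, so these member counts have no background. Among the members 12 differences were above and 6 below 0, beside 118 and 111 among all tested rows. The split of the members depended on the setting, with 10 and 8 in DESeq2, 9 and 8 without P03 and 13 and 7 without P04. In the limma test the median difference was 0.19 for members and 0.04 for all tested rows. The median SE was 0.72 for members and 0.51 for all rows.

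**Figure D4:**
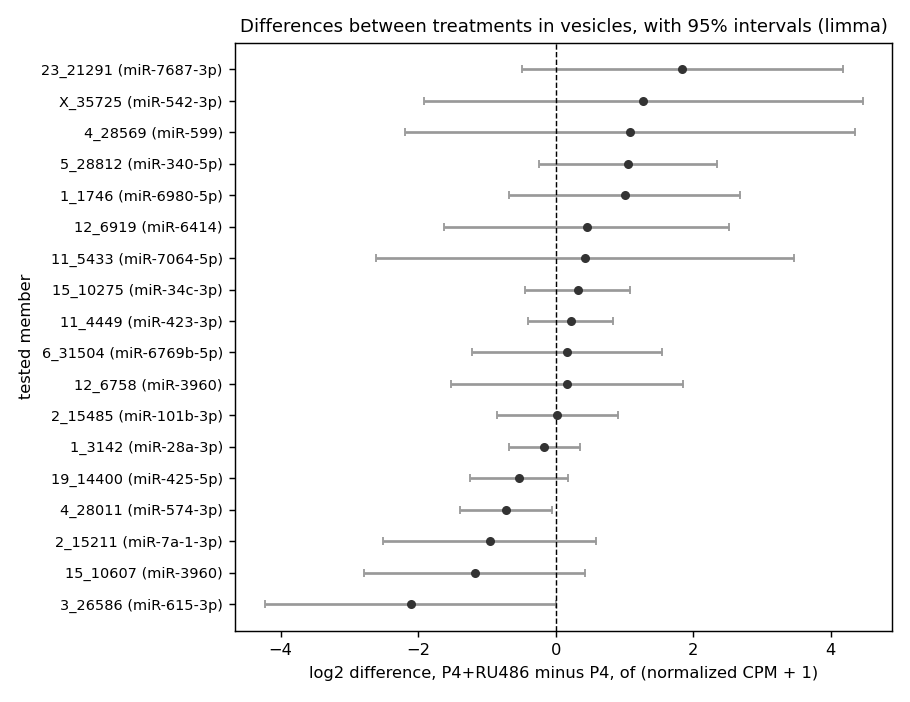
Log2 difference between treatments (P4+RU486 minus P4, on log2 of normalized CPM + 1) of the 18 tested members, with 95% intervals from limma. The interval of 4_28011 ends at -0.06 and those of the others include 0; no adjusted p is under 0.05.

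Several members with few reads had larger estimates and wider intervals. The member 3_26586 has the seed of miR-615-3p, whose gene lies in the HOXC cluster. It was at 31.4, 16.9, 13.2 and 38.2 normalized CPM in P01 to P04 and at 8.63, 15.7, 4.78 and 0 in R01 to R04, from 37 reads in all. P03 was below R02 and the other P4 libraries were above every P4+RU486 library. The treatments differed by -2.11 on the log2 scale (SE 0.97, limma adjusted p = 0.334), by -2.64 (R02) to -1.29 (R04) with 1 library left out and by -0.71 without P01, P04 and R04.

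The member 5_28812 has the seed of miR-340-5p, whose gene lies in an intron of RNF130. It was at 15.7, 33.7, 53.9 and 47.7 normalized CPM in P01 to P04 and at 107.8, 150.3, 52.6 and 31.3 in R01 to R04. R01 and R02 were above all P4 libraries, and R03 and R04 were within their range. The estimate was 1.05 on the log2 scale (SE 0.59, limma adjusted p = 0.458), and 0.69 (P01) to 1.44 (R04) with 1 library left out.

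The member 2_15211, with the seed of miR-7a-1-3p, the 3p strand of a miR-7 hairpin, had 35 reads in all. The P4 libraries averaged 19.9 ± 8.24 (SD, n = 4) normalized CPM and the P4+RU486 libraries, which overlapped them, 9.99 ± 4.64 (SD, n = 4). Their log2 difference was -0.96 (SE 0.71, limma adjusted p = 0.602), and it ran from -1.20 (R02) to -0.65 (R01) with 1 library left out.

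The remaining low-numbered tested members were X_35725 (miR-542-3p seed) and 4_28569 (miR-599 seed), with 36 and 42 reads. Both were without a read in 3 libraries. Their log2 differences of 1.27 and 1.08 had SE of 1.46 and 1.5. With 1 library left out they ran from 0.63 (P01) to 2.34 (R04) and from 0.39 (P01) to 2.13 (R04). These ranges lack X_35725 without P03, R01 or R02 and 4_28569 without P03 or R02. Those libraries held their highest values, and without them the mean fell under 10.

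Among members with a high-numbered seed name, 1_1746 and 23_21291 were called in the authors' deposited table and not in the limma test. The row 1_1746, with the miR-6980-5p seed, had a fold of -2.83 and p = 0.000946 after adjustment in the authors' deposited table. A negative fold there was read as higher in P4+RU486, from the deposited means. Its values were 78.6, 5.62, 18.7 and 47.7 normalized CPM in P01 to P04, from 10, 3, 17 and 5 reads. In R01 to R04 they were 43.1, 25.1, 110 and 62.6, from 10, 8, 23 and 6 reads. P01 was above 3 of the 4 P4+RU486 libraries, and the means differed 1.6-fold. Its estimate in the limma test was 1.0 on the log2 scale (SE 0.77, limma adjusted p = 0.631). With 1 library left out it ran from 0.33 (limma adjusted p = 0.933) without P02 to 1.53 (limma adjusted p = 0.315) without P01, with 0.65 without R03. Without P01, P04 and R04 it was 2.14 (limma adjusted p = 0.293).

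The row 23_21291, with the miR-7687-3p seed, had a fold of -3.72 and p = 0.02 after adjustment in the authors' deposited table. It was at 39.3, 7.49, 8.79 and 0 normalized CPM in P01 to P04 and at 56.1, 40.7, 9.56 and 20.9 in R01 to R04. P01 lay between R02 and R04, the other P4 libraries were below all P4+RU486 libraries, and the means differed 2.29-fold. On the log2 scale this row differed by 1.84 (SE 1.07, limma adjusted p = 0.461). The range with 1 library left out was 0.86 (limma adjusted p = 0.726) without P04 to 2.64 (limma adjusted p = 0.304) without P01. The recovered reads numbered 17 in P4 and 30 in P4+RU486.

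These were the calls among the 46 members in the authors' deposited table for vesicles: 0 with a positive fold and 2 with a negative one, beside 1.21% and 0.606% of all 495 rows. The row 11_5329, left out of the set by its definition, was also called there (fold -3.69), so the count depends on that choice. Of the 46 folds 19 were positive and 27 negative, beside 256 and 239 over all rows. The median absolute fold was 1.91, against 1.63 over all rows. Levels were not matched for this, and the largest absolute fold of a member, -13.54 for 25_22791, came from 4 reads. For 15 of the 18 tested members the authors' fold had the direction of the ratio of the deposited means. This was so for 314 of the 366 rows with a mean above 0 in both treatments. The meaning of the sign was read from this comparison, so the match is not a separate result. The 3 other tested members were 6_31504, 2_15485 and 12_6758, whose means differed by less than their SD.

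Several seed names were shared by more than 1 member. In both files together, 9 names were listed for 2 or more rows, 20 rows in all, and miR-3960 and miR-7667-3p for 3 each. The miR-3960 seed belongs to a miRNA described in bone-forming cells. Its row 12_6758 was at 212, 35.6, 17.6 and 104.9 normalized CPM in P01 to P04 and at 51.8, 28.2, 81.3 and 188 in R01 to R04. The row 15_10607 was at 110, 54.3, 10.99 and 47.7 in P01 to P04 and at 43.1, 12.5, 19.1 and 10.4 in R01 to R04.

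In both rows P01 was the highest of the 8 libraries, and P03 had the lowest value of 12_6758. R04 was the second highest library for 12_6758, from 18 reads, and the lowest for 15_10607, from 1 read. P03 was almost as low for 15_10607, at 10.99 from 10 reads. The order of libraries thus differed between these rows of 1 seed, but on few reads. Their log2 differences were 0.16 (SE 0.77, limma adjusted p = 0.947) and -1.18 (SE 0.74, limma adjusted p = 0.505). With 1 library left out, that of 12_6758 ran from -0.42 (P03) to 0.75 (P01) and that of 15_10607 from -1.80 (P03) to -0.73 (P01). Without P01, P04 and R04 the latter was -0.17. The third row, 9_34797, was listed for the endometrium only.

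The rows 20_19130 and 24_22050, with the miR-7667-3p seed, had 24 and 21 reads. The first had 8 reads in P4 and 16 in P4+RU486, with means of 2.78 and 16.4 normalized CPM. The second had 14 and 7 reads, but means of 6.73 and 8.135 normalized CPM. The P4 libraries held more reads on average (457300 against 219900 in listed rows). Neither row reached the filter. The row 2_16657 of this seed was in the endometrium table only.

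Consecutive identifiers with the same seed name gave like or identical values. The rows 24_22097 and 24_22098 (miR-1291 seed) had the same reads in the 4 P4 libraries, 5 in all. In R01 to R04 they had 4, 2, 8 and 0 reads and 3, 2, 5 and 0 reads. The rows 18_13743 and 18_13744 (miR-3474 seed) held the same 3 reads, all in P01, and 1_2603 and 1_2604 (miR-7659-5p seed) had identical values from 4 reads. Reads of such rows may be shared by the counting, which is not given in the sources used here. The other 3 sets of identical rows joined different seed names and had at most 2 reads, so their identity is that of single reads.

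Further members with 5 or more detected libraries had levels near the floor. The tested rows 6_31504 (miR-6769b-5p seed), 12_6919 (miR-6414 seed) and 11_5433 (miR-7064-5p seed) had 50, 20 and 18 reads. Their log2 differences were 0.17 (SE 0.63), 0.45 (SE 0.95) and 0.42 (SE 1.40). Reads in P4 libraries alone were found for 7 of the 46 members and in P4+RU486 libraries alone for 4. The share over all rows was not counted, so these numbers have no background, and the P4 libraries were deeper on average. The largest read count among these 11 members was 4 reads.

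In the endometrium, 1 member was called in the authors' deposited table, beside 0.92% of all 761 rows for positive folds and 0.263% for negative folds. It was 14_9523, with the miR-7018-3p seed, at a fold of 4.97 (p = 0.00686 after adjustment in the authors' deposited table). Which treatment is the numerator is not stated for these folds, so the sign does not show which was higher. In vesicles 14_9523 had 2 reads, both in P03. No test was run on endometrium libraries, because the names of their 10 value columns could not be matched to samples.

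Of the 93 endometrium members, 50 had a positive and 43 a negative fold in the authors' deposited table, beside 364 and 397 over all rows. An absolute fold of 2 or more was listed for 25 of them (26.9%), against 15.8% of all rows. The rows compared were not matched for level, and the part of low read counts in these folds was not tested. The 40 members listed for the endometrium alone had folds from -13.44 to 2.89, with 17 positive and 23 negative and a lowest adjusted p of 0.096. That lowest p was of 11_5466, with the miR-3552 seed and a fold of -13.44 in the authors' deposited table.

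None of the 6 most abundant vesicle members was called in the endometrium. The authors' deposited table gives 1.04 for 1_3142 (miR-28a-3p seed), 1.66 for 15_10275 (miR-34c-3p seed), 1.23 for 11_4449 (miR-423-3p seed), -1.11 for 2_15485 (miR-101b-3p seed), 1 for 4_28011 (miR-574-3p seed) and 1.06 for 19_14400 (miR-425-5p seed). Their adjusted p-values there were 0.531 to 0.994. The fold of 15_10275 was above the median absolute endometrium fold of 1.3 over members and 1.25 over all rows, and the other 5 were below both. The 2 members called in vesicles had endometrium folds of 1.10 (1_1746) and -1.06 (23_21291) in the authors' deposited table, with adjusted p-values of 0.961 and 0.989. The member 3_26586 (miR-615-3p seed) had a fold of 2.19 there, with an adjusted p of 0.135.

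Other endometrium members carried seed names of strands known from particular cells or hairpins, and a seed name does not identify the locus. The row 1_1834, with the seed of miR-511-5p, encoded in the macrophage receptor gene MRC1, stood at 2.89-fold in the authors' deposited table (adjusted p = 0.449). The row 19_14928, with the seed of miR-155-3p, from a hairpin active in immune cells, stood at 1.46-fold in the authors' deposited table (adjusted p = 0.587). The row 1_2624, with the seed of miR-18a-3p of the miR-17-92 cluster, stood at 3.24-fold in the authors' deposited table (adjusted p = 0.19). None of the 3 was called. Rows with the seeds of miR-145a-3p (21_19737), miR-653-3p (4_28196), miR-338-5p (JH922317.1_36804) and miR-29b-1-5p (20_17931) had negative folds, of -3.09, -2.39, -1.64 and -1.09. Their adjusted p-values were 0.538 to 0.992 in the authors' deposited table. Of the 30 endometrium members numbered under 1000, 15 had a positive and 15 a negative fold.

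**Figure D5:**
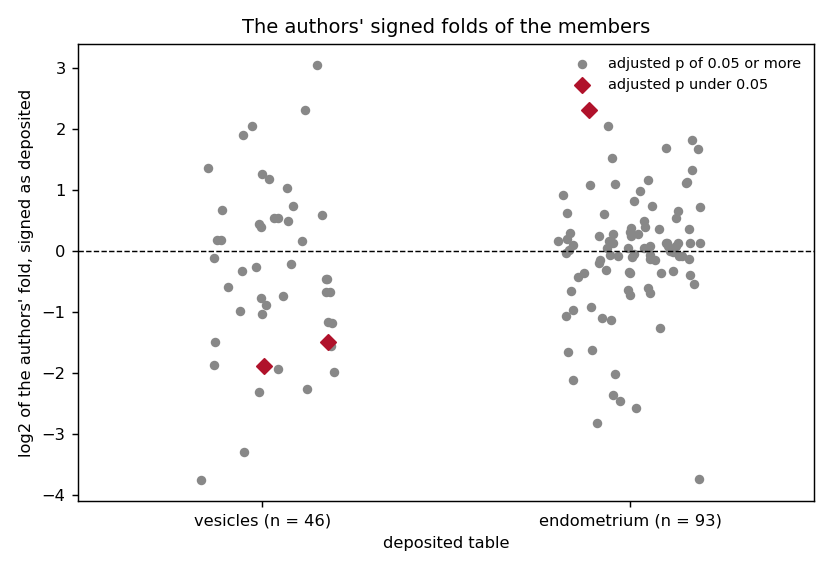
Log2 of the authors' fold, signed as deposited, of the 46 vesicle and 93 endometrium members; red diamonds have an adjusted p under 0.05 in the authors' deposited tables. The 2 red points in vesicles are negative (read as higher in P4+RU486) and the 1 in endometrium is positive, with a numerator that is not named.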

How the data were processed

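Small RNA libraries of endometrium and luminal vesicles were analysed from 2 tables the authors deposited. Per the submitters' processing notes, adapters were trimmed with cutadapt 1.11, the build was Oar_v3.1 and edgeR was used. The aligner, locus prediction and read filters: not given in the sources used here. The deposited values for vesicles are normalized signal, from which whole reads were recovered: 100% of values in each column were whole multiples of 1 step (tolerance 0.1 read). The deposited tables also give the authors' signed fold and, per the file headers, adjusted p-values. In vesicles a positive fold was read as higher in P4, the direction in which 314 of 366 rows matched the ratio of the deposited means. The 10 endometrium library columns were not used, and identical endometrium rows were those with the same seed name, fold and adjusted p. No sequence of these rows was used.

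The test was limma 3.58.1 (trend, R 4.3.3) on log2(value + 1), over all 229 rows with a mean of at least 10, Benjamini-Hochberg adjusted, threshold 0.05. Checks used edgeR 4.0.16 and DESeq2 1.42.0 on recovered reads, and the fit was tested on simulated data. The simulation gave every row the same dispersion (spread beyond counting error). That dispersion was not estimated from these libraries, so the simulation does not show how the fit performs at their spread. Vesicle columns name the treatment by an initial but not the ewe. Named members were the 8 most abundant, those called in either source, the 6 with the smallest p in each direction, those without overlap and those of seed names listed 3 times. Without endometrium levels, members of that table alone were named by adjusted p. Those with miR-511-5p, miR-155-3p, miR-18a-3p, miR-145a-3p, miR-653-3p, miR-338-5p and miR-29b-1-5p seeds were named after their values were seen. Members and lists were chosen with earlier results of these data known.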

Additional observations from a re-analysis of the deposited data

Results flagged for a closer look

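In groups of 4 libraries, 40 in all, 3 had a library far from the others by Dixon's criterion, where chance gives about 1 in 20. In P4, P02 was at 7207.66 normalized CPM for 1_3142 (miR-28a-3p seed). In P4+RU486, R02 was at 1164.72 for 2_15485 and its copy 1_2168 (miR-101b-3p seed). In P4+RU486, R04 had reads for 17 members, and it was the shallowest library of that treatment, with 101186 reads in listed rows.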

How the results depend on the processing

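No member passed in any of 20 alternatives, over 339 values of 18 members, and 12 of the 18 kept their direction in every alternative that gave a value. A member whose mean fell under the filter of an alternative gave no value there. With the filter at a mean of at least 50, 8 members gave a value. At a mean of at least 10, none was given for X_35725 and 4_28569 without their highest libraries, or for 11_5433 without R03. The member 12_6919 gave none without P01, R02 or R04, or without P01, P04 and R04 together. Under library totals X_35725 also gave none. Over all rows, 0 were higher and 1 lower in P4+RU486. DESeq2 called 2 and 2, edgeR without a filter 3 and 3, log2 depth as a covariate 4 and 2, and the fit without P01, P04 and R04 1 and 0 (the last 3 chosen after seeing the data). With 1 library left out, 0 to 2 rows were lower.

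The sign turned for 6 members. 2_15485 was at -0.061 under library totals, -0.0001 with median-of-ratios factors, -0.12 without P01, P04 and R04, and, with 1 library left out, from -0.39 (R02) to 0.22, with -0.10 (P04) and -0.0048 (P01). 12_6758 was at -0.057 with edgeR, -0.058 with edgeR without a filter, -0.16 with DESeq2, -0.27 with depth as a covariate, and, with 1 library left out, from -0.42 (P03) to 0.75, with -0.32 (R04) and -0.098 (P02). 6_31504 was at -0.012 with DESeq2, -0.049 with depth and, with 1 library left out, from -0.32 (P03) to 0.51. Without P02, 1_3142 was at 0.0083 (from -0.24 with 1 library left out), 11_5433 at -0.41 (up to 1.41) and 12_6919 at -0.037 (up to 0.79). The cause was not tested.

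At 3 reads or more in place of 1, the members per library fell from a mean of 26.0 to 17.8 in P4 and from 27.3 to 16.3 in P4+RU486. Without 1_3142, the share was 1.01% in place of 1.53% in P4 and 0.977% in place of 1.40% in P4+RU486. The P4 share was 1.23% to 1.74% with 1 library left out. Counting all rows gave 54 and 94 members in place of 46 and 93. No paired analysis was possible because the columns do not name the ewe and each ewe had 1 treatment. A count of 0 reads allows 3.30 to 31.3 normalized CPM.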
